A study of Gallus gallus with 3 samples.

Results

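Sub-cluster 5 of the HH29 chicken foot is a population of cycling mesenchymal cells with high levels of G2 and M phase transcripts. Its members were all deposited cells that carry number 5 in the fine cluster column of the HH29 count table, which the study named cycling. They were 577 of the 6823 cells of that table, among 17628 cells in the whole series. The cells are described against the 6246 other HH29 cells, and against sub-cluster 16, the other population of the table that the study's marker tables named cycling. G2 and M phase describe here which transcripts were high, and give no phase to single cells.

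A dividing cell copies its DNA in S phase, passes through G2 and then separates its chromosomes in M phase. Cyclin-dependent kinase 1 with a B-type cyclin drives entry into mitosis, and the anaphase-promoting complex ends it by marking securin and the cyclins for destruction. Many genes of this machinery are transcribed mainly in G2 and M, whereas genes that load and fire replication origins are transcribed mainly around the start of S phase. In the limb bud, division of lateral plate mesenchyme supplies the cells of the growing autopod, the part of the limb that forms the digits.

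The series holds 1 library for each of 3 Hamburger-Hamilton (HH) stages of *Gallus gallus* hindlimb, and no biological replicate. The HH31 library came from the tip of digit 4 and was made with 10x version 2 chemistry, the HH29 library came from digits 3 and 4 and was made by DropSeq in 3 technical replicates, and the HH25 library, from the whole autopod, is not described here. Stage, platform and dissection changed together and cannot be told apart, and the labels give neither strain nor treatment. Both methods count transcripts by unique molecular identifiers (UMIs).

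The HH29 cells held 24108511 UMIs over 10804 genes. Sub-cluster 5 contributed 1986854 of these, with 1206 to 13292 UMIs per cell, and the other cells 22121657, with 920 to 17091. Of the 3 pairs of technical replicates, 2 shared 3 cell barcodes each and 1 shared none. Markers of other cell types were far lower in sub-cluster 5 than in the sub-clusters of those types. Summed over their lists, endothelial genes reached 6.04 UMIs per 1000000 UMIs (CPM) in sub-cluster 5, against 2895 CPM in the endothelial sub-cluster, leukocyte genes 3.52 against 7311 CPM, muscle genes 2.52 against 856 CPM, and skin genes 75.5 against 4141 CPM, with a median of 56.2 CPM of skin genes over the 17 other sub-clusters. *GILT* among the leukocyte genes and *KDR* among the endothelial genes had no UMI in sub-cluster 5.

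The share of sub-cluster 5 was much alike in the technical replicates. It held 205 of 2372 cells (8.64%, exact 95% interval 7.54 to 9.85%) in replicate 1, 240 of 2836 cells (8.46%, 7.46 to 9.55%) in replicate 2 and 132 of 1615 cells (8.17%, 6.88 to 9.62%) in replicate 3, a mean of 8.43 ± 0.237% (SD, n = 3 technical replicates). These intervals, like all others here, cover counting error only. Cells of sub-cluster 5 had a median of 3303, 2861 and 3218 UMIs in the 3 replicates, and other cells had 3435, 2691 and 2837. The ratio of the medians was 1.05 ± 0.0867, so the depth of the compared cells was similar, and its direction was not the same in all replicates. When each cell was thinned to 1000 UMIs, sub-cluster 5 showed a mean of 672 genes per cell and the other cells 655.

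The cell cycle scores that the authors deposited run from 0 to 1 and come from the same counts. The median G2M score was 0.999 in each of the 3 replicates of sub-cluster 5, against 0.662, 0.698 and 0.631 in other cells. The median S score was 0.543, 0.574 and 0.56 in sub-cluster 5, against 0.631, 0.696 and 0.689 in other cells. Of the 577 cells, 533 (92.4%) scored higher for G2M than for S, against 3104 of 6246 other cells (49.7%). A G2M score under 0.5 was found in 28 cells of sub-cluster 5 (4.85%) and 2538 other cells (40.6%). In the methods the clustering is described as made after correction for the difference of the G2/M and S scores. In the deposited scores the median of S minus G2M was -0.427 in sub-cluster 5 and 0.0035 in other cells. What the correction left in the data used for clustering was not examined.

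The 5 label markers were all highest in sub-cluster 5 of the 18 sub-clusters. They were *CENPF* (ENSGALG00000009690), a kinetochore protein, *KPNA2* (ENSGALG00000003584), an importin that carries cargo into the nucleus, *CCNB3* (ENSGALG00000025810), a B-type cyclin, *GTSE1* (ENSGALG00000004897), a microtubule-binding protein of G2 cells, and *CKS2* (ENSGALG00000038817), a small subunit of cyclin-dependent kinases. Since the clusters were made from these same counts, the differences from other cells are descriptions, and no test was made.

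*CENPF* stood at 2403, 2026 and 2136 CPM in the replicates of sub-cluster 5, against 414.6, 350.6 and 345.4 CPM in other cells. *KPNA2* stood at 1855, 1975 and 2322 CPM, against 330.1, 336.2 and 398.9 CPM. *CCNB3* reached 422.3, 336.6 and 443.3 CPM, against 63.8, 56.9 and 89.2 CPM. For none of these genes did the replicates of the 2 groups overlap. How many of all genes did the same was not examined, here and for the genes below. *GTSE1* had 290.3, 325.1 and 233.1 CPM in sub-cluster 5, against 52.3, 50.1 and 53.1 CPM in other cells. The log2 ratios of CPM, with UMIs summed over all cells of a group, were 2.55 (2.5 to 2.6) for *CENPF*, 2.53 (2.47 to 2.58) for *KPNA2*, 2.55 (2.43 to 2.68) for *CCNB3* and 2.5 (2.35 to 2.64) for *GTSE1*. Their SDs over the replicates were 0.06, 0.03, 0.21 and 0.28.

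*CKS2* was rare at this stage. Its 35 UMIs in sub-cluster 5 gave 18.3, 15.3 and 20.6 CPM in the replicates, against 3.69, 1.55 and 1.78 CPM in other cells, and it fell short of the 100 UMIs over both groups that were required to count a gene. Its log2 ratio was 2.85, with an interval of 2.19 to 3.49. In the HH31 library *CKS2* was more abundant, with 110.7 CPM in sub-clusters 9 and 11 and 7.49 CPM in the other cells of that stage.

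**Figure D1:**
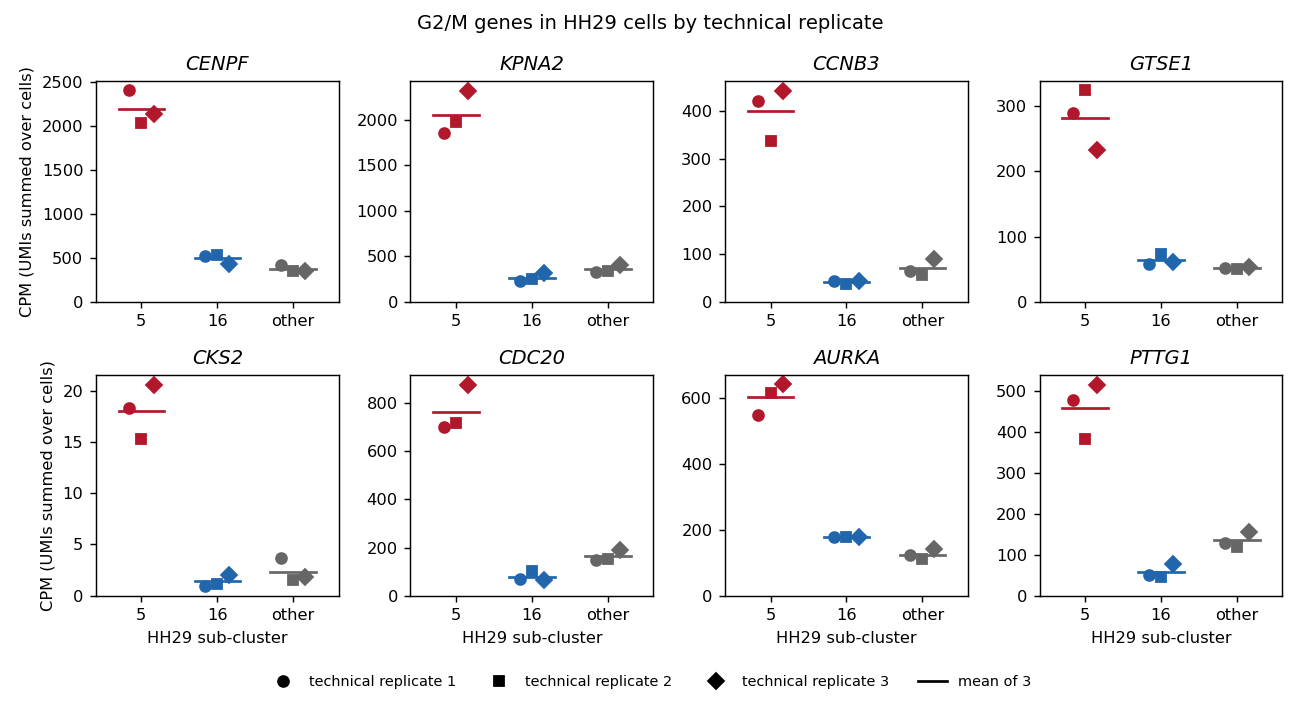
CPM of 8 G2/M genes (y axes, linear from 0) in sub-cluster 5, sub-cluster 16 and all other cells of HH29 (x axes). Each symbol is 1 technical replicate and each bar the mean of 3, and in every panel the 3 replicates of sub-cluster 5 lie above those of both other groups, as for *CENPF* with 2026 to 2403 CPM, against 345.4 to 414.6 CPM in other cells.

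In single cells these transcripts were often seen in sub-cluster 5 and were not exclusive to it. At full depth *CENPF* had a UMI in 520 of 577 cells of sub-cluster 5 (90.1%, 87.4 to 92.4%) and in 1959 of 6246 other cells (31.4%, 30.2 to 32.5%). *CCNB3* had one in 328 cells of sub-cluster 5 (56.8%, 52.7 to 60.9%) and in 732 other cells (11.7%, 10.9 to 12.5%). With each cell thinned to 1000 UMIs, which left out 0 cells of sub-cluster 5 and 2 others, the shares were 76.4% and 17.8% for *CENPF* and 27.6% and 4.45% for *CCNB3*. Since any of these populations may hold dividing cells, none gives a pure background. Sub-cluster 17, the forming joint, had the lowest mitotic level, and at full depth 23 of its 118 cells had a UMI of *CENPF* (19.5%) and 3 one of *CCNB3* (2.54%), at medians of 2764 UMIs per cell in sub-cluster 17 and 3080 in sub-cluster 5. After thinning, 49 cells of sub-cluster 5 (8.49%) showed none of the 5 markers, 114 (19.8%) showed 1, 223 (38.6%) showed 2 and 160 (27.7%) showed 3. Of the 6244 other cells left, 4505 (72.1%) showed none.

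Over all genes, 189 of 8826 that reached 100 UMIs were at least 2-fold higher in sub-cluster 5 than in other cells (2.14%), and 564 were at least 2-fold lower (6.39%). The counts depended on the gene minimum, with 126 higher and 124 lower genes at 500 UMIs and 282 higher and 1028 lower at 20 UMIs, and 339 genes were higher with cells thinned to 1000 UMIs. The median log2 ratio of all these genes was -0.04. Of the 189 higher genes, 144 were at least 2-fold higher in each technical replicate and 184 were higher in each, and 170 had their highest CPM of the 18 sub-clusters in sub-cluster 5. Of the 564 lower genes, 143 were at least 2-fold lower in each replicate and 449 were lower in each. A gene without UMIs in a replicate was given a fixed minimum count, which limited how low its ratio could be there. How many of the 564 genes this kept under 2-fold was not examined. Gene names were taken from pairs of identifier and name in the study's marker and module tables, which were themselves drawn from these cells. They named 3000 of the 8826 genes, of which 115 were at least 2-fold higher (3.83%) and 248 at least 2-fold lower (8.27%). A count over a list of named genes is therefore not independent evidence of its direction.

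Genes of 9 lists on mitosis were fixed for description, 115 symbols in all. Of the 87 with an identifier, 86 reached 100 UMIs, and 69 of these were at least 2-fold higher in sub-cluster 5 and 0 lower. Their median log2 ratio was 1.63, and the medians of the replicates were 1.65, 1.66 and 1.64. The counting interval lay above 0 for 85 of the 86, and *RANBP1*, at 0.06 (-0.02 to 0.14), was the exception. For 78 of the 86 genes sub-cluster 5 had the highest CPM of the 18 sub-clusters. How many of all counted genes did so, or had an interval above 0, was not examined. In sum the lists took 63035 CPM in sub-cluster 5 and 26673 CPM in other cells.

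All 9 counted genes of the list of CDK1, cyclins and their regulators were at least 2-fold higher, with a median log2 ratio of 2.0. *CDK1*, the kinase that drives mitotic entry, stood at 1266, 1262 and 1355 CPM in sub-cluster 5, against 403.1, 371.9 and 434.8 CPM in other cells, a log2 ratio of 1.69 (1.62 to 1.75). *CCNB2*, a B-type cyclin, had 498.1, 360.8 and 324.5 CPM, against 120.5, 93.2 and 82.8 CPM. Both genes were apart in all replicates, and *CCNB2* was highest in replicate 1 in both groups. *CCNF*, a cyclin with an F-box, had a log2 ratio of 2.25, *PLK1*, the mitotic Polo kinase, 2.08, and *FOXM1*, a transcription factor of G2/M genes, 1.93. The smallest ratio of the list was that of *CKS1B*, 1.11 (0.83 to 1.37).

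Of the 8 counted genes of the anaphase-promoting complex, securin and mitotic exit, 6 were at least 2-fold higher. *CDC20*, the activator of the complex at the start of anaphase, had 702.1, 715.2 and 875.2 CPM in sub-cluster 5, against 148.7, 152.7 and 187.7 CPM in other cells, and its log2 ratios varied little over the replicates (2.23, SD 0.01). *UBE2C*, the ubiquitin-conjugating enzyme of the complex, had a log2 ratio of 2.06, and *PTTG1*, securin, 1.76. *FZR1*, the activator that acts late in mitosis and in G1, reached 0.82 (0.64 to 0.99) and *CDC27*, a core subunit, 0.83 (0.57 to 1.07), both under 2-fold.

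Of 6 spindle checkpoint genes 4 were at least 2-fold higher. The checkpoint kinase *BUB1B* had 771.4, 725.4 and 891.1 CPM in sub-cluster 5, against 157.6, 159 and 195.8 CPM in other cells (log2 ratio 2.22), and *MAD1L1* had the lowest ratio at 0.36 (0.10 to 0.62). All 5 genes of the Aurora kinases and chromosomal passengers were at least 2-fold higher. *AURKA*, the Aurora kinase of the spindle poles, stood at 547.8, 615.8 and 642.1 CPM, against 121.9, 110.8 and 140.3 CPM (2.29), while *BIRC5*, survivin, had the smallest ratio of the 5, 1.37 (1.26 to 1.47). *TPX2*, which activates Aurora A on the spindle, was the most abundant of them, with 1714 CPM, against 425.3 CPM in other cells.

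The centromere and kinetochore list divided by degree. Of its 15 counted genes 11 were at least 2-fold higher. *CENPF* led, followed by the kinesin *CENPE* with 2.15 (2.06 to 2.24) and by *HJURP*, the chaperone of centromeric histone, with 1.96 (1.81 to 2.11). *CENPH*, *SKA3*, *SKA2* and *CENPK* stood under 2-fold, at 0.99, 0.94, 0.91 and 0.72. Of the kinesin and spindle list 15 of 16 were at least 2-fold higher, from *HMMR*, a spindle assembly factor, at 2.35 and *ASPM*, a spindle pole protein, at 2.24 down to *KIF15* at 1.32. The exception was *STMN1*, a microtubule-destabilizing protein, which was abundant everywhere, with 4053 CPM, against 3438 CPM in other cells (0.24).

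All 7 cytokinesis genes were at least 2-fold higher, and none fell under 2.01. *PRC1*, which bundles microtubules of the central spindle, had 228.8, 209.1 and 237.6 CPM in sub-cluster 5, against 41.9, 40.7 and 42.6 CPM in other cells (2.42, SD 0.06). *RACGAP1*, a part of the centralspindlin complex, had a log2 ratio of 2.28 and *ECT2*, the exchange factor that starts furrowing, 2.12 (1.84 to 2.39). The list thus had the highest median of the 9, 2.15.

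Of 12 genes of condensin and mitotic chromosome structure 9 were at least 2-fold higher. *HMGB2*, a chromatin protein, was the most abundant transcript of the lists, with 5128, 5038 and 5009 CPM in sub-cluster 5, against 1645, 1659 and 1628 CPM in other cells (1.62, SD 0.02). *TOP2A*, the topoisomerase that untangles sister chromatids, had 1812, 1604 and 1353 CPM, against 576.8, 564.6 and 446.2 CPM (1.59). The condensin genes *SMC4*, *NCAPH*, *NCAPG*, *SMC2*, *NCAPD3* and *NCAPD2* lay close together, between 1.46 and 1.59. *H2AFZ*, *HMGB1* and *HMGN2*, general chromatin proteins, stood at 0.68, 0.47 and 0.42.

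The list of nuclear import and nuclear envelope was the one least raised, with 3 of 8 genes at least 2-fold higher and a median of 0.77. Apart from *KPNA2* these were *RANGAP1*, the activator of the Ran GTPase, at 1.19 (1.04 to 1.34) and *LBR*, the lamin B receptor, at 1.14 (1.06 to 1.21). *RAN* itself stood at 0.26 and *RANBP1* at 0.06. *NEK2*, a centrosomal kinase, and *FAM72A*, known from human and mouse cells to bind the uracil glycosylase UNG2, were also among the 15 genes of largest ratio, at 2.33 and 2.28.

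**Figure D2:**
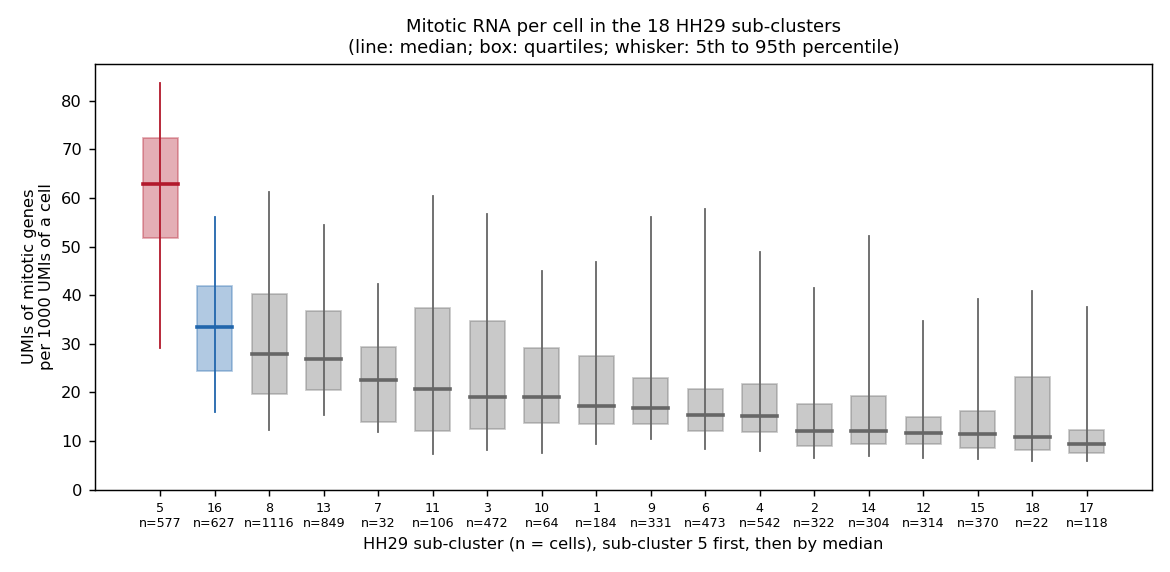
UMIs of the mitotic genes per 1000 UMIs of a cell (y axis) in the 18 sub-clusters of HH29 (x axis, with the number of cells), with the median as a line, quartiles as a box and the 5th to 95th percentile as a whisker. Sub-cluster 5 has the highest median, 62.8, followed by sub-cluster 16 with 33.5, and the whiskers of other sub-clusters reach into its range.

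Per cell, the mitotic genes took a median of 61.6, 62.5 and 64.7 of every 1000 UMIs in the replicates of sub-cluster 5, against 18.9, 19.7 and 21.2 in other cells, a ratio of 3.16 ± 0.0998 (SD, n = 3 technical replicates). The distributions overlapped at their ends. In all, 132 of 6246 other cells (2.11%) lay above the median of sub-cluster 5, 48 of them in the distal mesenchyme (sub-cluster 8), 16 in the interdigit sub-cluster 6 and 9 in sub-cluster 16. In turn 13 cells of sub-cluster 5 (2.25%) lay below the median of other cells. After sub-cluster 16 came the distal mesenchyme with a median of 27.9 and the undifferentiated mesenchyme, sub-cluster 13, with 26.9, and the lowest was the forming joint with 9.39. Sub-cluster 5 itself ranged from 10.5 to 101.1.

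DNA replication genes did not move as one group. Of 31 counted genes of that list 0 were at least 2-fold higher in sub-cluster 5 and 7 were at least 2-fold lower, with a median log2 ratio of -0.27. With every other sub-cluster given equal weight this median was 0.013. For 7 genes the counting interval lay wholly above 0 and for 17 wholly below, and the same over all counted genes was not examined. In sum the list took 5489 CPM in sub-cluster 5 and 6438 CPM in other cells. The median over cells had the opposite order, by a small margin. It was 5.32, 5.4 and 5.34 of every 1000 UMIs in the replicates of sub-cluster 5, against 5.29, 5.25 and 5.12 in other cells. The ratio was 1.03 ± 0.0187. Other cells spread more widely, with quartiles of 2.67 and 8.93 per 1000 UMIs, against 4.02 and 6.88 in sub-cluster 5. With the mean of per-cell CPM the median log2 ratio of the list stayed below 0, at -0.19.

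The 7 lower genes were *UNG*, *CDC6*, *MCM5*, *MCM2*, *MCM3*, *SLBP* and *GINS1*. *MCM2*, *MCM3* and *MCM5* encode subunits of the replicative helicase, *CDC6* loads that helicase on origins, *GINS1* is part of its active form, *UNG* removes uracil from DNA, and *SLBP* binds the stem-loop of histone messages. *MCM5* had 27.5, 33.1 and 13.7 CPM in sub-cluster 5, against 130.1, 129.5 and 127.4 CPM in other cells (log2 ratio -2.28, -2.70 to -1.88). *MCM2* had 22.2, 35.7 and 22.8 CPM, against 127.9, 123.3 and 112.2 CPM (-2.15, -2.56 to -1.76). Both lay apart from other cells in all replicates. *UNG*, with 14 UMIs in sub-cluster 5, had 5.23, 7.65 and 9.14 CPM, against 68.4, 57.4 and 60 CPM in other cells (-3.14, -4.02 to -2.39). *SLBP* stood at 24.8, 35.7 and 59.4 CPM, against 115.6, 135.7 and 149.8 CPM (-1.83, SD 0.45). Apart from *GINS1*, each of the 7 genes was lower in sub-cluster 5 than in any of the 17 other sub-clusters, although *CDC6* rested on 5 UMIs. The 7 were picked for their low ratio, and how many of all counted genes were lowest in sub-cluster 5 was not examined.

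At the other end were *CDC45*, a helicase partner, at 0.73 (0.48 to 0.97), *RFC3*, a clamp loader subunit, at 0.64 (0.41 to 0.86), and *UHRF1*, which recognizes newly copied methylated DNA, at 0.53 (0.43 to 0.64). *FEN1*, the flap nuclease of lagging strand synthesis, reached 0.39 (0.28 to 0.50). *PCNA*, the sliding clamp, had 366.1, 388.8 and 326.8 CPM in sub-cluster 5, against 593.3, 579.9 and 567.3 CPM in other cells (-0.67, -0.78 to -0.56). *NASP*, a histone chaperone and the most abundant gene of the list, had 1688 CPM in sub-cluster 5 and 1931 CPM in other cells (-0.19).

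**Figure D3:**
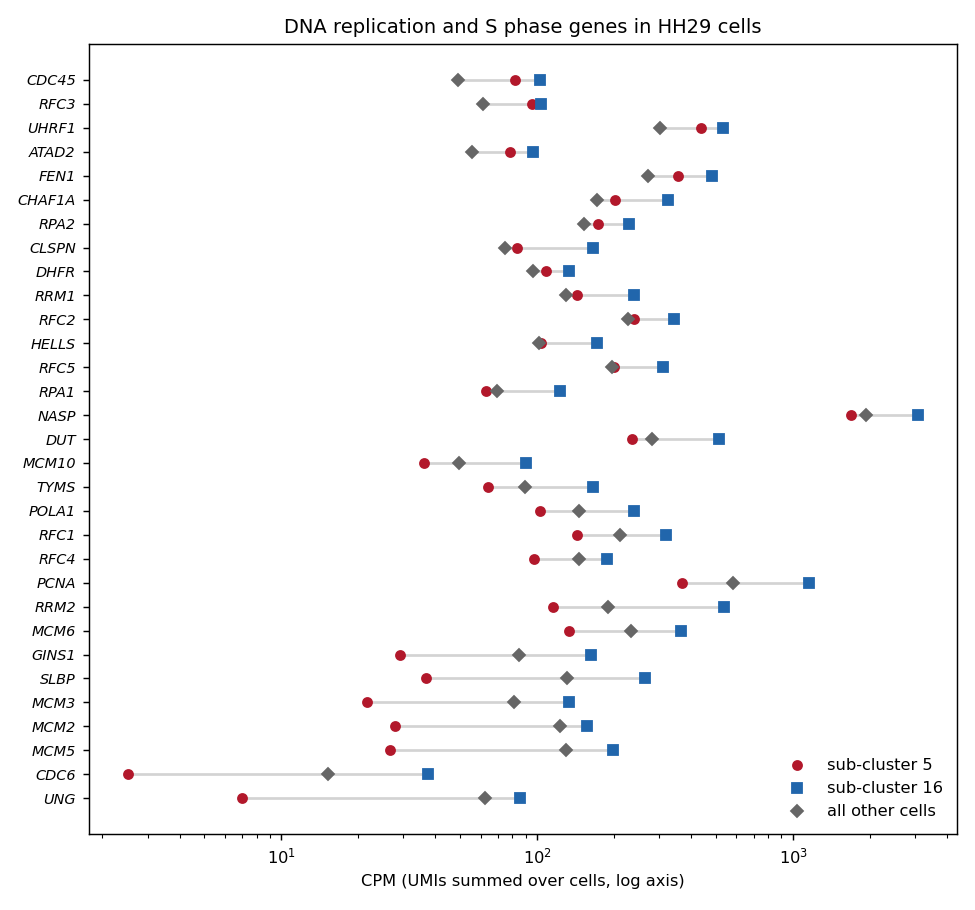
CPM (x axis, log scale) of the 31 counted replication and S phase genes (y axis, ordered by log2 ratio) in sub-cluster 5, sub-cluster 16 and all other cells of HH29. For every gene sub-cluster 5 lies below sub-cluster 16, and for the genes at the bottom, such as *MCM5* with 26.7 CPM against 129.2 CPM in other cells, also far below the other cells.

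The comparison with sub-cluster 16 set the 2 cycling populations against each other. Here 93 of 5055 counted genes were at least 2-fold higher in sub-cluster 5 (1.84%) and 61 at least 2-fold lower (1.21%, or 2.97% and 1.64% of the named genes), with a median log2 ratio of 0.0048 over all genes. Of 85 counted genes of the mitotic lists 47 were at least 2-fold higher and 0 lower, with a median of 1.16 (SD of the replicate medians 0.0398). Of 30 counted replication genes 0 were higher and 14 lower, with a median of -0.97 (-0.98, -1.06 and -0.96).

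*CCNB3* had 422.3, 336.6 and 443.3 CPM in sub-cluster 5, against 42.5, 37.5 and 44.3 CPM for sub-cluster 16 (3.26, 2.95 to 3.58). *CDC20* followed with 702.1, 715.2 and 875.2 CPM, against 71.2, 102 and 64.4 CPM (3.20, 2.99 to 3.43). *PTTG1* had 479.8, 382.5 and 516.4 CPM, against 50.5, 46.9 and 78.5 CPM (3.03, 2.76 to 3.31). Next came *KPNA2* (2.98), *BUB1B* (2.63), *TNFAIP8L1* (2.5), *PRC1* (2.27), *ASPM* (2.23), *KIF20A* (2.19), a kinesin of cytokinesis, and *GTSE1* (2.18).

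Other mitotic genes differed less between the cycling populations. The centromere genes *CENPK* and *SKA3* had log2 ratios of -0.22 and -0.01 over sub-cluster 16, and *CENPC*, *CENPH* and *SPC25* 0.14, 0.18 and 0.39. *MKI67*, the proliferation marker Ki-67, stood at 1223 CPM, against 910.7 CPM in sub-cluster 16 (0.42), and *SMC2* at 1533 CPM, against 1131 CPM (0.44). Of the 15 centromere genes 4 were at least 2-fold higher, and of the 12 condensin and chromosome genes 1, *HMGB2* (1.3). In contrast all 9 counted genes of the CDK1 and cyclin list and all 7 of the cytokinesis list were at least 2-fold higher than in sub-cluster 16.

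The genes of lowest ratio over sub-cluster 16 among those with at least 100 CPM in either population were *MCM5* (-2.89), *SLBP* (-2.84), *MCM3* (-2.61), *MCM2* (-2.49), *GINS1* (-2.47) and *RRM2* (-2.23), the small subunit of ribonucleotide reductase. *RRM2* had 122.9, 100.7 and 125.7 CPM in sub-cluster 5, against 557, 555.6 and 462.8 CPM in sub-cluster 16. The linker histone gene *HIST1H103* stood at 1838, 1462 and 1229 CPM, against 5951, 5639 and 4678 CPM (-1.84), and *HIST1H111L* at -2.0. The mismatch repair gene *MSH6* had a ratio of -1.82 and *PCNA* of -1.65. Histone genes are a family of near-identical copies, so reads of *HIST1H103* and *HIST1H111L* may be shared with other members.

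**Figure D4:**
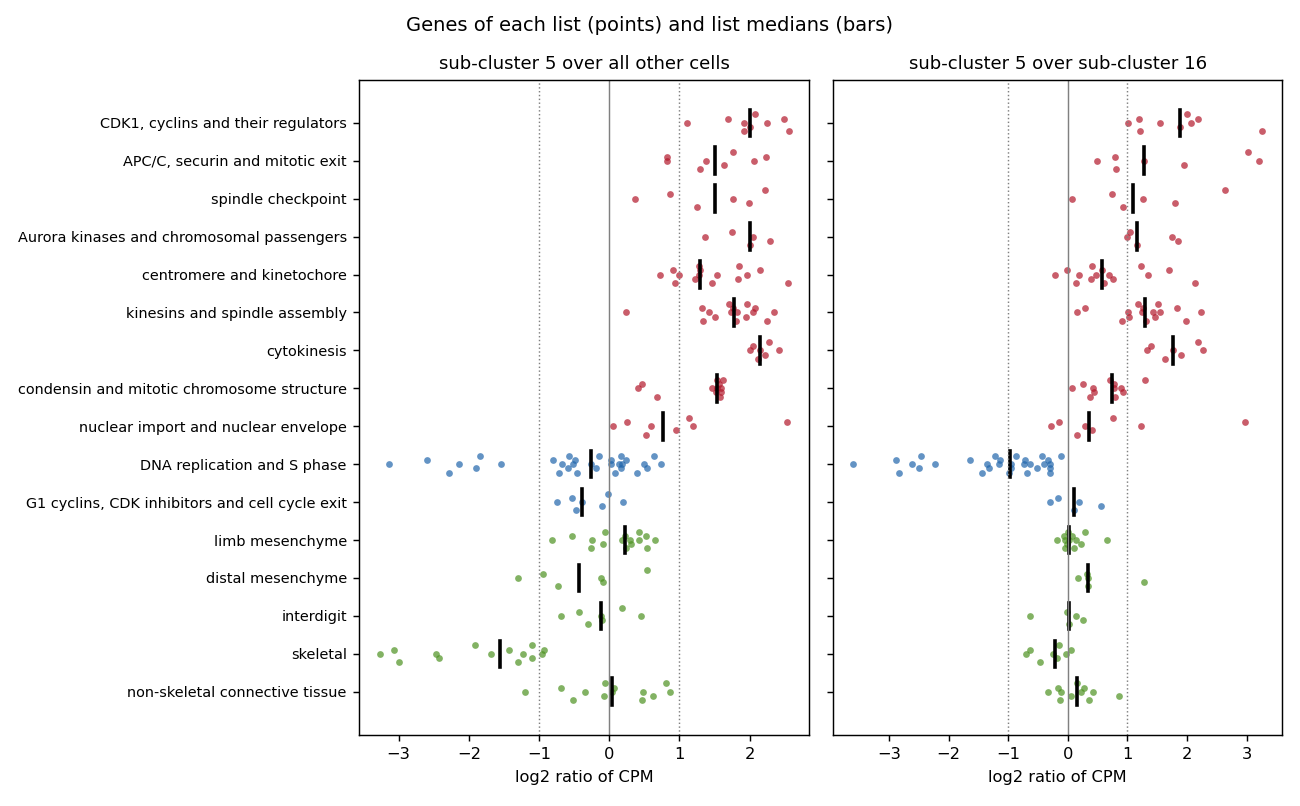
Log2 ratio of CPM (x axes) of the counted genes (points) of 16 lists (y axis), with list medians as black bars, for sub-cluster 5 over all other cells on the left and over sub-cluster 16 on the right. The medians of the 9 mitotic lists lie to the right of 0 in both panels, at 0.77 to 2.15 on the left, and on the right some members lie below 0. The skeletal list, with a median of -1.55 over other cells, lies near 0 over sub-cluster 16 (-0.22). For the list of G1 cyclins, CDK inhibitors and cell cycle exit the medians are -0.39 and 0.11. Of its 7 genes counted over other cells 0 were at least 2-fold apart in either direction.

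Limb mesenchyme genes were compared for the mesenchymal identity of the label. Many of the other cells are limb mesenchyme too, so ratios over these cells say little about identity. *PRRX1*, a homeobox gene of limb mesenchyme, had 1386, 1130 and 1005 CPM in the replicates of sub-cluster 5, against 870.1, 730 and 650.2 CPM in other cells (log2 ratio 0.65, 0.58 to 0.71). It was seen in 462 of 577 cells of sub-cluster 5 (80.1%) at full depth, and in 4107 of 6246 other cells (65.8%). The share was 82% in sub-cluster 16 and 90.3% in sub-cluster 13. In skin it was 21.2% (39 of 184 cells), at a median of 3242 UMIs. *HOXD12*, a posterior Hox gene of the autopod, stood at 1278 CPM in sub-cluster 5 and 884.7 CPM in other cells (0.53). *HOXD13* (0.42), *HOXD11* (0.52), *TWIST1* (0.29) and *HOXA13* (0.22) had smaller ratios, and *MSX1* had 609 CPM in sub-cluster 5 and 726.7 CPM in other cells (-0.25). Of 16 counted genes of the list 0 were at least 2-fold apart in either direction, and their ratios ran from -0.81 to 0.65. The median was 0.23. It was 0.53 with every other sub-cluster given equal weight and 0.13 without sub-clusters 1, 7, 10, 11 and 18.

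Genes of specialized populations were mostly lower than in other cells as a whole, whose totals were carried by a few sub-clusters. Of 14 skeletal genes 12 were at least 2-fold lower and 0 higher, with a median log2 ratio of -1.55. The summed level of the list was 764 CPM in sub-cluster 5, close to the median of the 17 other sub-clusters (862 CPM), and reached 15123 CPM in the chondrocytes of sub-cluster 3. *COL9A1*, a cartilage collagen, had 52.3, 116 and 57.1 CPM in sub-cluster 5, against 611.6, 683.1 and 557.8 CPM in other cells, and *SOX9*, the chondrogenic transcription factor, 156.9, 147.9 and 144 CPM, against 297.7, 334 and 345.6 CPM. The lowest ratio was that of *MATN1*, a cartilage matrilin, at -3.27 (-3.87 to -2.72), with 13.6 CPM in sub-cluster 5, a median of 15.2 CPM over the 17 others and 1382 CPM in sub-cluster 3. The embryonic haemoglobin genes *HBAA* and *HBE* had ratios of -2.59 and -2.33, with wide differences between replicates. These transcripts lay mainly in sub-cluster 2, which the study assigned to the interdigit mesenchyme and not to blood. Their list summed to 92.1 CPM in sub-cluster 5, a median of 105 CPM over the 17 others and 6619.6 CPM in sub-cluster 2. *HBE* had 30.1, 20.4 and 80 CPM in sub-cluster 5, against 27.7, 153.5 and 520.2 CPM in other cells, so that replicate 1 showed no decrease.

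Other genes of low ratio with at least 100 CPM in other cells included the secreted factors *PTN* (-1.61), *CTGF* (-1.43) and *CXCL14* (-1.42), the calcium-binding *S100A11* (-1.34) and the surface protein *CD24* (-1.23). Each of them was highest in a sub-cluster of another kind. *CXCL14* had 59.4 CPM in sub-cluster 5, the fifth highest of 18, a median of 36.7 CPM over the 17 others and 2458 CPM in skin. *PTN* had 205 CPM in sub-cluster 5, a median of 192 CPM over the others and 4421 CPM in sub-cluster 14. Genes of connective tissue did not share a direction. The zinc finger homeobox gene *ZFHX3* (0.87), the homeobox gene *MEOX2* (0.81) and the nuclear receptor *NR2F2* (0.63) were higher than in other cells, while *DCN* (-0.68) and *LUM* (-1.20), which encode matrix proteoglycans, were lower. Of 13 genes of that list 0 were at least 2-fold higher and 1 was lower. Of 7 interdigit genes 0 passed 2-fold in either direction, and *RDH10*, which makes retinal from retinol, differed among replicates, with 201.4, 114.7 and 50.3 CPM in sub-cluster 5, against 157.5, 149.7 and 107.8 CPM in other cells. The heat shock genes *HSP90AA1* and *HSPA8* stood at 0.29 and 0.20, and the immediate early genes *FOS* and *EGR1* at -0.58 and -0.84.

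With all cell cycle lists left out, the profile of sub-cluster 5 was nearest to that of sub-cluster 16. Only list members with a name could be left out, so other cell cycle genes may remain in the comparison. Over 5250 genes with at least 500 UMIs, Pearson's r of log2(CPM + 1) was 0.971 with sub-cluster 16, 0.967 with sub-cluster 13 and 0.949 with the distal mesenchyme, sub-cluster 8. By the median absolute log2 difference the order of sub-clusters 13 and 8 was the opposite, with 0.195 for sub-cluster 16, 0.208 for sub-cluster 8 and 0.215 for sub-cluster 13. These are correlations across genes that share the library and its depth, given as a description. In sub-clusters 5, 16 and 13 in this order, *PRRX1* had 1201, 1241 and 1303 CPM and *HOXD13* 301, 302 and 266.4 CPM. Ribosomal protein genes took a median of 17.1, 14.7 and 14.2% of UMIs in the replicates of sub-cluster 5, against 20, 18.1 and 17.3% in other cells. With these and mitochondrial genes out of the total, the median ratio of the mitotic lists was 1.57.

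Sub-cluster 5 itself drew on 2 broad clusters of the authors. Of its 577 cells 470 lay in broad cluster 5, 98 in broad cluster 7 and 9 in the others. Those of broad cluster 7 had a median of 2467 UMIs and 53.4 mitotic UMIs per 1000, against 3212 UMIs and 65.3 per 1000 in the 470 cells of broad cluster 5, and the median G2M scores were 0.998 and 0.999 in the same order. Of 3156 counted genes 8 were at least 2-fold higher in the cells of broad cluster 7 (0.253%) and 52 at least 2-fold lower (1.65%).

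The following genes were chosen after their values were seen. *TFAP2B*, a distal transcription factor, had 105.7, 115.4 and 189.1 CPM in the cells of broad cluster 7 (10, 13 and 17 UMIs), against 50, 51.4 and 64.4 CPM in those of broad cluster 5 (33, 34 and 22 UMIs), a log2 ratio of 1.33 (0.75 to 1.88). *MSX2* had 253.6, 204.1 and 166.9 CPM, against 112.1, 65 and 137.7 CPM (1.08, 0.64 to 1.51). *WNT5A*, a ligand of the distal limb, had 792.4, 692.1 and 656.5 CPM, against 440.7, 456.3 and 395.4 CPM (0.70, 0.48 to 0.93). For these 3 genes the replicates of the 2 sets of cells did not overlap. The same held for *LUM*, with 105.7, 106.5 and 122.4 CPM, against 66.6, 66.5 and 61.5 CPM (0.76, 0.15 to 1.33). How many other genes did so was not examined. Outside the distal genes, *CLSPN* (0.69), *MCM6* (0.59) and *SOX9* (0.48) were also higher in the cells of broad cluster 7, while *PCNA* (-0.37) and *COL11A1* (-1.41) were lower. The limb mesenchyme list had a median of -0.03 over 11 counted genes, and the distal mesenchyme list 0.70 over 5. For sub-cluster 5 as a whole over other HH29 cells the distal list had a median of -0.42. Of its 6 counted genes 0 were at least 2-fold higher there and 1 was lower. *MAB21L1* was lower in the cells of broad cluster 7, with 21.1, 35.5 and 55.6 CPM from 2, 4 and 5 UMIs. In those of broad cluster 5 it had 124.2, 123.9 and 140.6 CPM (log2 ratio -1.78, -2.81 to -0.92). *OSR1* (-1.25, 13 UMIs in the cells of broad cluster 7) and *CRABP-I* (-1.10, 34 UMIs) were lower as well. *PRRX1* (-0.03) and *HOXD13* (-0.07) were close to equal. Of the mitotic genes *FBXO5* (-1.06, 32 UMIs in the cells of broad cluster 7) and *NCAPD3* (-1.23, 10 UMIs) were at least 2-fold lower. The mitotic lists had a median of -0.41 over 85 genes, beside 0.03 over all genes, with *CENPF* at 1342 CPM in the cells of broad cluster 7 and 2367 CPM in those of broad cluster 5. The broad clusters were made from the same counts, so these values describe them.

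The same genes can be set beside cycling cells of the HH31 library, sub-clusters 9 and 11 as 1 group (661 cells), against the 4162 other cells of that stage. These include 672 cells of sub-cluster 7, which the study also named cycling. The HH31 clusters were made from the counts of that library, so higher mitotic genes in cells named cycling are a description. The median log2 ratio of all 6040 counted genes was shifted there, to 0.20. Of these genes 200 were at least 2-fold higher (3.31%) and 171 lower (2.83%), or 5.6% and 4.41% of the named genes. Of 83 counted mitotic genes 77 were at least 2-fold higher and 0 lower, with a median of 2.57 (3.25 without sub-cluster 7 among the other cells), beside 1.63 for sub-cluster 5 at HH29. Of the 189 genes at least 2-fold higher in sub-cluster 5, 120 were counted at HH31 and 116 of these were at least 2-fold higher there and 0 lower. Of the 564 lower genes 196 were counted, with 83 at least 2-fold lower and 0 higher.

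*CCNB3* had 177.2 CPM in the HH31 cycling cells and 6.08 CPM in the other HH31 cells (log2 ratio 4.86, 4.49 to 5.26), and *KPNA2* 662.9 and 27.9 CPM in the same order (4.57, 4.39 to 4.75). *PTTG1* was at 1.95 at HH31 and 1.76 at HH29. The replication genes again ranged widely, from *MCM2* (-2.5) and *CDC6* (-2.34) up to *CDC45* (1.56), with a median of 0.11 over 31 genes, and *SLBP* stood at -0.97. *MAD1L1* was the only counted mitotic gene below 0, at -0.17. Platform and dissection also differ between these libraries, so the difference in size between the stages was not tested.

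**Figure D5:**
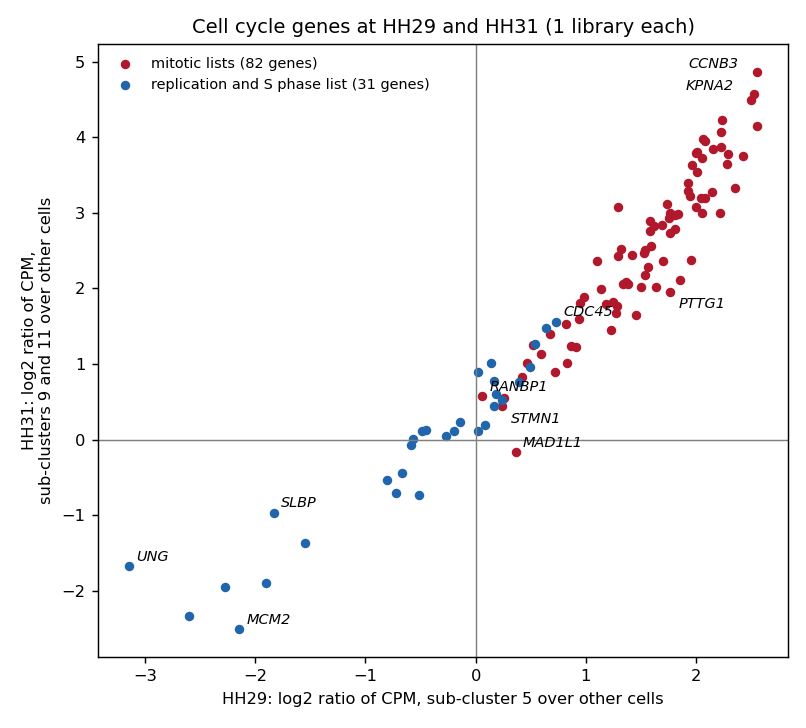
Log2 ratio of CPM of cycling over other cells at HH29 (x axis, sub-cluster 5) and at HH31 (y axis, sub-clusters 9 and 11) for counted genes of the mitotic and the replication lists (1 point a gene). *CCNB3* and *KPNA2* lie at the upper right (2.55 and 2.53 at HH29, 4.86 and 4.57 at HH31) and *MCM2* at the lower left (-2.15 at HH29, -2.5 at HH31).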

How the data were processed

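The authors deposited raw UMI counts, 1 cell a row, with a table per stage. They made these with the DropSeq pipeline for HH29 and with Cell Ranger (version 2) for HH31, on an Ensembl chicken assembly and annotation. The methods state that cells over 4 times the mean or under 20% of the median UMIs, or over 10% mitochondrial or ribosomal UMIs, were removed. Per the file headers each cell also carries S and G2M values, fractions from 0 to 1 that the authors obtained with scran from translated mouse gene pairs, their difference score (S minus G2M in all 6823 HH29 cells), a broad and a fine Louvain cluster from Seurat, and the technical replicate. All deposited cells were kept, no doublet caller was named in the methods and none was run.

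UMIs were summed over cells, scaled to CPM and compared as log2 ratios with exact conditional 95% intervals. A count of 0 was set at 3 UMIs, genes with at least 100 UMIs over the compared cells were counted, and a call was 2-fold. Means ± SD are over 3 technical replicates, which measure technical spread only. With 1 library per stage no p-value was computed. The members and gene lists were chosen with earlier results of these data known. Genes planned for naming were the label markers, the extremes and most abundant members of each list, and genes of largest and smallest ratio. The last were 15 genes (10 against sub-cluster 16) at each end with at least 100 CPM. Not every list extreme is named in the text. Other genes in the text were chosen after their values were seen. The stated ribosomal limit was not applied again. The computation was checked on simulated counts. Alternatives were another weighting of cells, thinning to 1000 UMIs (seed 11), the filters applied again, the deepest 5% of cells left out, other totals, gene minimums of 20 and 500 UMIs, other comparison cells and each replicate left out. Python 3.11.15, numpy 2.4.6, pandas 2.3.3, scipy 1.17.1 and matplotlib 3.10.9 were used.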

Additional observations from a re-analysis of the deposited data

How the results depend on the processing

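No paired analysis was possible because each stage has 1 sample and the results come from no test. Of 112 values under alternative settings 80 stayed within the spread of the technical replicates (within 1.5 times for counts of genes) and 32 moved. The HH31 library has no technical replicates. Its values were judged by the narrow spread of the HH29 mitotic median (SD 0.0126), and each of them counted as moved. No list median of at least 2-fold changed sign, and single genes were not followed. The share of cells and the ratio of median UMIs did not move under any alternative run, and the median G2M score, at the end of its scale, could hardly do so. The 189 higher genes became 339 with cells thinned to 1000 UMIs and 126 with a gene minimum of 500 UMIs, and the 564 lower genes became 1028 with a gene minimum of 20 UMIs and 124 with one of 500. With the mean of per-cell CPM, thinning, the deepest 5% of cells left out and every other sub-cluster weighted equally, the median log2 ratio over other cells was 2.83, 2.76, 2.79 and 2.68 for the label markers (2.54 in the text's setting) and 1.82, 1.86, 1.75 and 1.88 for the mitotic lists (1.63). With ribosomal protein and mitochondrial genes out of the total, the mitotic lists had 1.57 and the replication list -0.32. The replication list over other cells, -0.27, became -0.19 with per-cell CPM, -0.15 with thinning, -0.23 with a minimum of 500 UMIs and 0.013 with equal weights, so its sign depended on the weighting. The limb mesenchyme list, 0.23, became 0.13 with thinning, 0.13 without sub-clusters 1, 7, 10, 11 and 18, and 0.53 with equal weights. Over sub-cluster 16 the mitotic lists, 1.16, had 1.09 with per-cell CPM, 1.06 with thinning and 1.09 without the deepest cells. At HH31 the mitotic median of 2.57 became 2.75 with per-cell CPM, 2.61 with thinning, 2.73 with a minimum of 20 UMIs 2.65 without sub-cluster 5 of that stage and 3.25 without its sub-cluster 7, a setting chosen after seeing the data. Leaving out 1 technical replicate gave medians of 1.62 to 1.65 for the mitotic lists and -0.35 to -0.26 for the replication list over other cells, 1.09 to 1.17 and -1.06 to -1.01 over sub-cluster 16, 179 to 184 higher and 412 to 513 lower genes. The cause of these moves was not tested. All intervals cover counting error in 1 library.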
